A study of Mus musculus with 18 samples.

Results

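Zfp genes encode zinc finger proteins, and the 253 described here are the genes of the deposited table whose symbol is Zfp followed by digits only and whose mean over all 18 libraries was at least 100 normalized reads. They were thus selected on their name and mean level over the 18 libraries. The rule itself used no change over time, but it was chosen with earlier results of these data known. Zfp36, which encodes an RNA-binding protein with fingers of another type, was left out. The table listed 331 such symbols among 21937 genes. Of these, 78 lay below the mean of 100, and 6 of the 78 were at 0 in every library. The last genes inside the limit were Zfp775 (mean 100.05), Zfp605 (101.8) and Zfp960 (102.28), and the first outside were Zfp618 (97.4), Zfp184 (96.7) and Zfp709 (94.0).

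Most proteins of this family bind DNA through C2H2 fingers, in which cysteines and histidines hold a zinc ion, and strings of such fingers read long DNA sequences. Many carry a KRAB domain near their start, which recruits the corepressor TRIM28 (KAP1) and, through it, the histone methyltransferase SETDB1 and heterochromatin proteins. KRAB zinc finger genes lie in clusters of near relatives, and a number of them silence retroelements or protect imprinted regions, while other family members activate or repress genes through other partners or act on RNA, ribosomes or the mitotic spindle.

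The cells were NIH3T3, a line of mouse embryo fibroblasts, and all of them had received 100 nM dexamethasone, a synthetic glucocorticoid, for 2 h. The change to normal medium that ended the pulse was called 0 h, and RNA-seq libraries were made every 4 h up to 32 h. Each of these 9 times has 2 libraries, called replicate 1 and replicate 2. The series title names a circadian rhythm. No library came from cells without the pulse, so changes are differences between times of a single course. The labels do not say whether the replicates were separate cultures, so the p-values cover no more than the spread seen between these libraries. Replicate 1 held 31878642 to 38867189 reads in genes and replicate 2 held 25405004 to 32034822, the lowest being 0 h replicate 2. Of 10 fibroblast markers 9 had a mean of at least 10 (Lum did not), and their summed level was 853912 to 1230083 normalized reads. This sum was highest in both libraries of 0 h (1158349 and 1230083) and was 1056108 and 1036844 at 4 h. The epithelial genes Epcam and Cdh1, the leukocyte genes Ptprc and Itgam, the endothelial gene Kdr, the muscle genes Myod1 and Myog, the adipocyte genes Adipoq and Plin1 and the neural genes Rbfox3 and Gfap had means below 10. Other listed genes of these types were higher: 2 of 4 epithelial genes (Krt8 and Krt18), 2 of 3 endothelial (Pecam1 and Cdh5), 1 of 3 leukocyte (Cd68), 1 of 3 muscle (Des), 1 of 3 neural (Tubb3) and 0 of 2 adipocyte genes had a mean of at least 10. The summed epithelial list was highest in both libraries of 0 h (1121 and 831) and of 4 h (989 and 934) and lay between 115.7 and 335 from 12 h on. The other lists summed to 34.4 to 93.7 (endothelial), 159 to 279.9 (leukocyte), 26.4 to 87.0 (muscle), 245 to 716 (neural) and 0 to 4 (adipocyte). Of these, the neural sum was 425 and 397 at 0 h, 716 and 591 at 4 h and 270 and 245 at 32 h. The part of all these lists in the results was not tested. In a bulk culture, a change in the share of cells in a given state and a change within each cell cannot be told apart.

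The members were sorted by the proteins that their coding models in GENCODE M21 (GRCm38) encode. A KRAB domain was read in 125 members, where at least 10 of 15 fixed letters of a KRAB template were present. Another 120 had at least 1 C2H2 finger and no KRAB match, and 6 had neither (Zfp259, Zfp330, Zfp365, Zfp503, Zfp703 and Zfp839). Zfp353 and Zfp862 had no coding model. Few members lay near the limit: 119 had 6 or fewer template letters and 117 had 13 or more, with 7 members at 7 to 9 letters and 8 at 10 to 12. KRAB members had a median of 12 fingers (0 to 23), and other C2H2 members a median of 7.5 (1 to 37). A SCAN domain, through which such proteins pair with each other, was found in 16 members.

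KRAB members lay at lower levels per length than the other C2H2 members. Per kb of transcript the median level was 104 normalized reads for KRAB members and 188 for other C2H2 members. The highest levels per kb were those of Zfp207, a kinetochore protein that binds BUB3 (3239), Zfp706 (1322), Zfp740 (1198), Zfp146 (1035), Zfp106, an RNA-binding protein (1033), and Zfp330 (1021). Zfp445, which maintains methylation at imprinted regions, was the highest KRAB member (779.6 per kb). For Zfp106, 25.2% of the 50-base words of the transcript also occur in Gm26899, a gene on the opposite strand, so its level is uncertain. The level of Zfp330 is uncertain too, with 31.3% of its words found in Gm7785.

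Many of the genes lie on a few chromosomes. Chromosome 7 held 58 members (29 KRAB), chromosome 17 held 34 (28 KRAB) and chromosome 13 held 18 (13 KRAB). In RefSeq's gene order 100 members, 70 of them KRAB, stood next to another member. In 37 members, 20 of them KRAB, at least 20% of the 50-base words also occurred in another gene's transcript, so that reads could be shared between near copies. Exons of 22 members overlapped another gene on the same strand and those of 67 a gene on the opposite strand, and whether the counting used strand is not given in the sources used here.

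The promoters of KRAB members often held the core of the known binding element of Zfp143, a zinc finger activator that is itself a member. The search covered the 250 bases before the start of 204 members (108 KRAB and 91 other C2H2) in RefSeq's promoter table (GRCm38.p6). The core, on either strand ACTACA, any 2 bases and TCC, was present in 21.3% of KRAB members, in 8.8% of other C2H2 members and in 2.1% of all 27025 genes of the table. Of the members that were higher at 4 h than at 0 h and in the promoter table, 12 of 48 (25%) held it, beside 31 of all 204 members (15.2%). Shown here are the 7 KRAB members higher at 4 h that were picked for holding the core with 12 bases of the 250 on each side. Among KRAB members higher at 4 h and in the promoter table, 8 held the core and 23 did not. The core is in capitals, read 5′ to 3′ along the strand that holds it.
Zfp790: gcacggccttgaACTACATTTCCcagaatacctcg
Zfp109: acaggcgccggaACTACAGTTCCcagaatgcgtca
Zfp940: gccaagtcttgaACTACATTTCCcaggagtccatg
Zfp60: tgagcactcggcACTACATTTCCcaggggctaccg
Zfp661: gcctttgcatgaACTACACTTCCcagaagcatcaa
Zfp595: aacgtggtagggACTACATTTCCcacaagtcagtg
Zfp933: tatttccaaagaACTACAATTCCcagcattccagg
Directly after the core all 7 sequences read ca, and 6 of them read cag. The same was seen more widely: of 27 members with such a window, all 27 went on with ca, 14 with cag and 9 with cac. On GRCm38.p6 the windows of the first 4 are Zfp790 chr7:29815957-29815991 (- strand, 92 bases before the start), Zfp109 chr7:24237700-24237734 (+ strand, 113 bases before the start), Zfp940 chr7:29853662-29853696 (+ strand, 25 bases before the start) and Zfp60 chr7:27731332-27731366 (+ strand, 54 bases before the start). Those of the last 3 are Zfp661 chr2:127584734-127584768 (+ strand, 68 bases before the start), Zfp595 chr13:67332588-67332622 (+ strand, 39 bases before the start) and Zfp933 chr4:147848428-147848462 (- strand, 21 bases before the start). A match of letters is a description and not a measured binding site.

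The KRAB members were split by the core to compare their changes. Of 23 KRAB members with it, 8 were higher and 1 lower at 4 h, with a median log2 change from 0 h of 0.22. Of 85 without it, 23 were higher and 2 lower, with a median of 0.21. At 32 h the medians were 0.21 with it and 0.22 without. Of other C2H2 members, 8 had the core, of which 4 were higher and 0 lower at 4 h (median 0.23), and 83 lacked it, of which 11 were higher and 5 lower (median 0.07). Their medians at 32 h were 0.36 and 0.03. None of these differences was tested. Zfp143 itself was at 581 and 627 at 0 h and 646 and 677 at 4 h, did not pass in any of 4 contrasts or the F test (limma), and ranged from 560 to 677 over the 18 libraries. The other motifs stood nearer to their share in all genes. The CCAAT box (CCAAT) was present in 56.5% of KRAB members, 48.4% of other C2H2 members and 37.5% of all genes. The ETS site (CCGGAAGT) was present in 10.2%, 7.7% and 3.2%. The E-box of the clock proteins (CACGTG) was present in 10.2%, 5.5% and 6.9%, and the REV-ERB and ROR element (AGGTCA) in 10.2%, 15.4% and 15.8%. Of the 48 members higher at 4 h, 8 (16.7%) held the E-box, beside 17 of all 204 members (8.3%) and 0 of 8 members lower at 4 h. The ETS site and the REV-ERB and ROR element were each in 6.2% of those 48, beside 9.8% and 12.3% of all members. These differences were not tested. The EGR site (GCGNGGGCG) was present in 2.8%, 12.1% and 5.3%, the cyclic AMP response element (TGACGTCA) in 3.7%, 4.4% and 1.8%, and the YY1 site (AAGATGGCG) in 0.9%, 2.2% and 0.7%. The glucocorticoid receptor element (GNACA, any 3 bases and TGTNC) was found in 0 members and in 0.4% of all genes. All were searched on both strands, and no motif contains another.

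**Figure D1:**
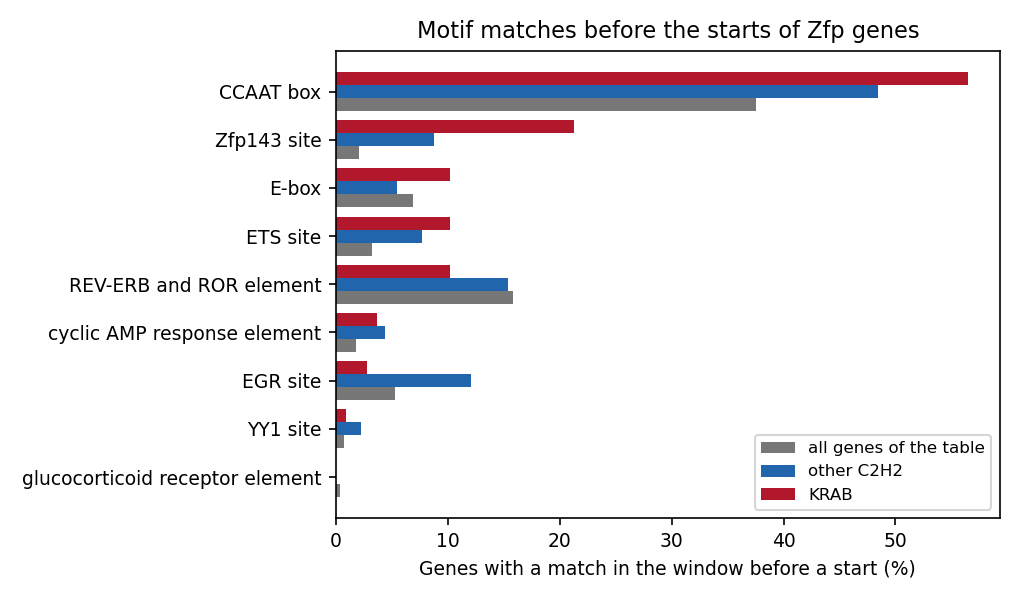
Share of genes (%, x axis) with a match to each of 9 motifs (y axis) in the 250 bases before a RefSeq start, for 108 KRAB members (red), 91 other C2H2 members (blue) and all 27025 genes of the promoter table (grey). The Zfp143 core stands at 21.3% in KRAB members against 2.1% in all genes, and the glucocorticoid receptor element at 0 in both classes.

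Levels at 4 h were compared with those at 0 h to see what changed in the first hours after the pulse and the medium change. Of the 253 members 61 were higher (24.1%, against 11.0% of the 12393 tested genes and 12.2% of genes with a mean of at least 100). Another 10 were lower (4.0%, against 10.5% and 11.7%). The rises were modest: 14 of the 61 were at least 1.5-fold and 2 at least 2-fold, with a median of 1.33-fold. Of the 61 risers 39 were KRAB genes. Of 125 KRAB members 39 were higher and 3 lower, with a median log2 change of 0.21. Of 120 other C2H2 members 20 were higher and 7 lower, with a median of 0.085. All tested genes had a median of -0.002. The median was above 0 in both replicates taken alone (0.17 and 0.24 for KRAB, 0.076 and 0.086 for other C2H2). The difference between the classes was not tested. Genes passed by limma with a Benjamini-Hochberg adjusted p under 0.05 over all 12393 genes, and log2 changes are differences of log2(value + 1), on which low genes appear to change less than they did.

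The count of risers leans on single libraries, 0 h replicate 2 above all, and so does the count over all genes. Without 0 h replicate 2 18 members (7.1%) were higher, against 4.1% of all tested genes, and 9 KRAB members (7.2%). With 4 h replicate 1 left out the counts were 32 members (12.6%, against 5.7%) and 19 KRAB members. With 4 h replicate 2 left out they were 40 (15.8%, against 8.1%) and 25. With these 3 libraries left out in that order, 4, 6 and 4 members were lower. Other C2H2 members had 8, 12 and 13 higher and 2, 4 and 2 lower, and 4 lower without 0 h replicate 1. Without 0 h replicate 2 the share of risers was nearly the same in KRAB and other C2H2 members. Over all libraries left out the median of the KRAB members was 0.18 to 0.24. With the replicate number as a block 54 KRAB members were higher (43.2%) and 6 lower, and 35 other C2H2 members were higher (29.2%), while the share of all tested genes also went up, to 18.8% higher and 18.8% lower. Both libraries of 4 h lay above both of 0 h in 69.6% of KRAB members and 47.5% of other C2H2 members, and in 29.1% of all tested genes.

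**Figure D2:**
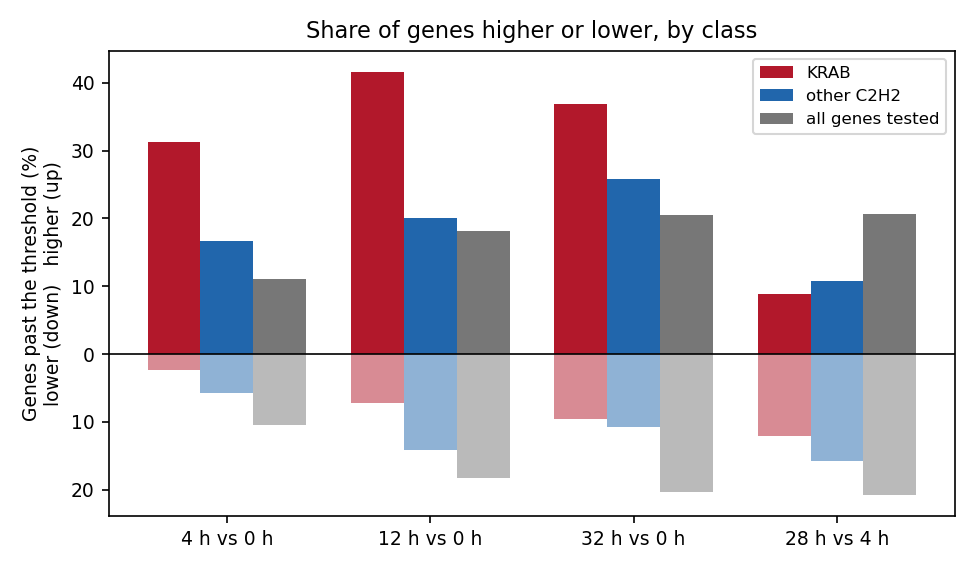
Share of genes (%, y axis) past the adjusted p threshold of 0.05, higher drawn upward and lower downward, for KRAB members, other C2H2 members and all genes tested, in 4 contrasts (x axis). Higher outnumber lower KRAB members at 4 h (31.2% and 2.4%), 12 h and 32 h against 0 h, while at 28 h against 4 h the shares are 8.8% and 12.0%. With libraries rescaled to the same total, higher members outnumber lower ones in the last contrast too.

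Zfp324, a KRAB gene on chromosome 7, had the largest rise at 4 h among the members that passed. It was at 159.8 and 162 at 0 h, 369 and 418 at 4 h, 297 and 316 at 8 h, 304 and 270.1 at 12 h, 264 and 304 at 16 h, 285 and 285 at 20 h, 292 and 311 at 24 h, 318 and 317 at 28 h and 304 and 287 at 32 h. Both libraries of 4 h lay above all others, and every library after 0 h lay above both of 0 h. The difference at 4 h was 2.43-fold (log2 1.28 ± 0.0991, adjusted p = 2.34e-06). Its neighbour Zfp446, which has a SCAN domain and no KRAB match, went from 181 and 143 at 0 h to 258 and 246 at 4 h (1.56-fold, log2 0.65 ± 0.12, adjusted p = 0.00201).

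Zfp503 (Nolz-1), a repressor known from the development of the striatum, has no match to the finger pattern. It was at 704 and 535 at 0 h, 1223 and 1404 at 4 h, 1265 and 1312 at 8 h, 1135 and 1119 at 12 h, 1242 and 1317 at 16 h, 1287 and 1309 at 20 h, 1269 and 1367 at 24 h, 1293 and 1219 at 28 h and 1267 and 1284 at 32 h. The level about doubled between the first pair of times and then stayed there: 2.13-fold at 4 h (log2 1.09 ± 0.102, adjusted p = 9.71e-06). It was 2.08-fold at 32 h (log2 1.05 ± 0.102, adjusted p = 2.15e-06), against the same 0 h libraries. None of the libraries after 0 h overlapped those of 0 h.

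Zfp790, Zfp940 and Zfp420, which follow one another in that order on chromosome 7, rose at 4 h. Zfp27, the other neighbour of Zfp420, did not pass (log2 0.34). Zfp790, a KRAB gene with the Zfp143 core shown above, was at 288 and 240.3 at 0 h and 436 and 465 at 4 h (1.71-fold, log2 0.77 ± 0.12, adjusted p = 0.000566). Zfp420, a gene with 19 fingers and no KRAB match in these models, was at 121 and 97.5 at 0 h and 214 and 201 at 4 h (1.90-fold, log2 0.93 ± 0.167, adjusted p = 0.00161). Zfp940 stands between them and, named after its values were seen, went from 147 and 133 to 210.3 and 189 (1.42-fold, adjusted p = 0.0182, lost with adjusted p = 0.122 on leaving out 4 h replicate 1 and 0.148 on leaving out 0 h replicate 2). In Zfp790, Zfp420 and Zfp940 the libraries of 4 h lay above those of 0 h. Zfp40, a KRAB gene on chromosome 17, went from 145 and 93.4 to 209 and 196 (1.73-fold, log2 0.79 ± 0.18, adjusted p = 0.00708), a call lost when a library was left out (adjusted p = 0.0506 on leaving out 4 h replicate 1 and 0.111 on leaving out 0 h replicate 2).

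Fewer members fell, and the steepest falls were those of a pair of KRAB neighbours on chromosome 17. Zfp948 was at 2174 and 2400.0 at 0 h, 1331 and 1053 at 4 h, 1316 and 1197 at 8 h, 1251 and 1240.1 at 12 h, 1171 and 1128 at 16 h, 1139 and 1005 at 20 h, 1118 and 1112 at 24 h, 1007 and 938 at 28 h and 1017 and 1028 at 32 h. Most of the fall came within the first interval: it at 4 h was 1.93-fold (log2 -0.95 ± 0.0974, adjusted p = 2.29e-05), and all later libraries were below both of 0 h. Zfp52, next to it, was at 3133 and 3016 at 0 h, 2052 and 2173 at 4 h, 2057 and 1982 at 8 h, 1931 and 1958 at 12 h, 1943 and 1604 at 16 h, 1737 and 1370.2 at 20 h, 1796 and 1565 at 24 h, 1533 and 1362 at 28 h and 1547 and 1398 at 32 h. This gene fell in steps, 1.46-fold at 4 h (log2 -0.54 ± 0.112, adjusted p = 0.004) and 2.09-fold at 32 h (log2 -1.06 ± 0.112, adjusted p = 4.79e-06). Only 0.87% of the 50-base words of Zfp52 and 0.12% of those of Zfp948 occur in other transcripts, and exons of Zfp52 overlap 9330136K24Rik on the opposite strand.

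Zfp281, a regulator of pluripotency genes, also fell. It was at 4557 and 4682 at 0 h, 3238 and 3639 at 4 h, 2702 and 2754 at 8 h, 2451 and 2846 at 12 h, 2623 and 2799 at 16 h, 2647 and 2631 at 20 h, 2715 and 3014 at 24 h, 2923 and 3076 at 28 h and 3039.9 and 3258 at 32 h. The lowest library was at 12 h, and both libraries of 32 h were above all of 8 h to 24 h: 1.35-fold lower at 4 h (log2 -0.43 ± 0.0787, adjusted p = 0.00184). The fall was 1.75-fold at 12 h (log2 -0.81 ± 0.0787, adjusted p = 3.24e-06) and 1.47-fold at 32 h (log2 -0.55 ± 0.0787, adjusted p = 7.26e-05). Zfp821 was lowest at 4 h, falling from 287 and 276 to 215 and 214 (1.31-fold lower, log2 -0.39 ± 0.089, adjusted p = 0.00711), and was at 292 and 335 at 32 h (adjusted p = 0.191). Zfp697 (exons overlapped by Hsd3b2 and Hsd3b3) and Zfp516, an activator of brown fat genes, passed at 4 h (1.30-fold and 1.22-fold lower, adjusted p = 0.0449 and 0.0247), but neither call held in every set of libraries. For Zfp697 it was lost with adjusted p from 0.05 to 0.312 on leaving out a library (1 or 2) made at 0 h, 8 h, 16 h or 32 h, or replicate 1 of 28 h, or replicate 2 of 4 h, each alone, and for Zfp516 with adjusted p = 0.0756 on leaving out 4 h replicate 1, 0.339 on leaving out 0 h replicate 2 and 0.099 on leaving out 4 h replicate 2.

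**Figure D3:**
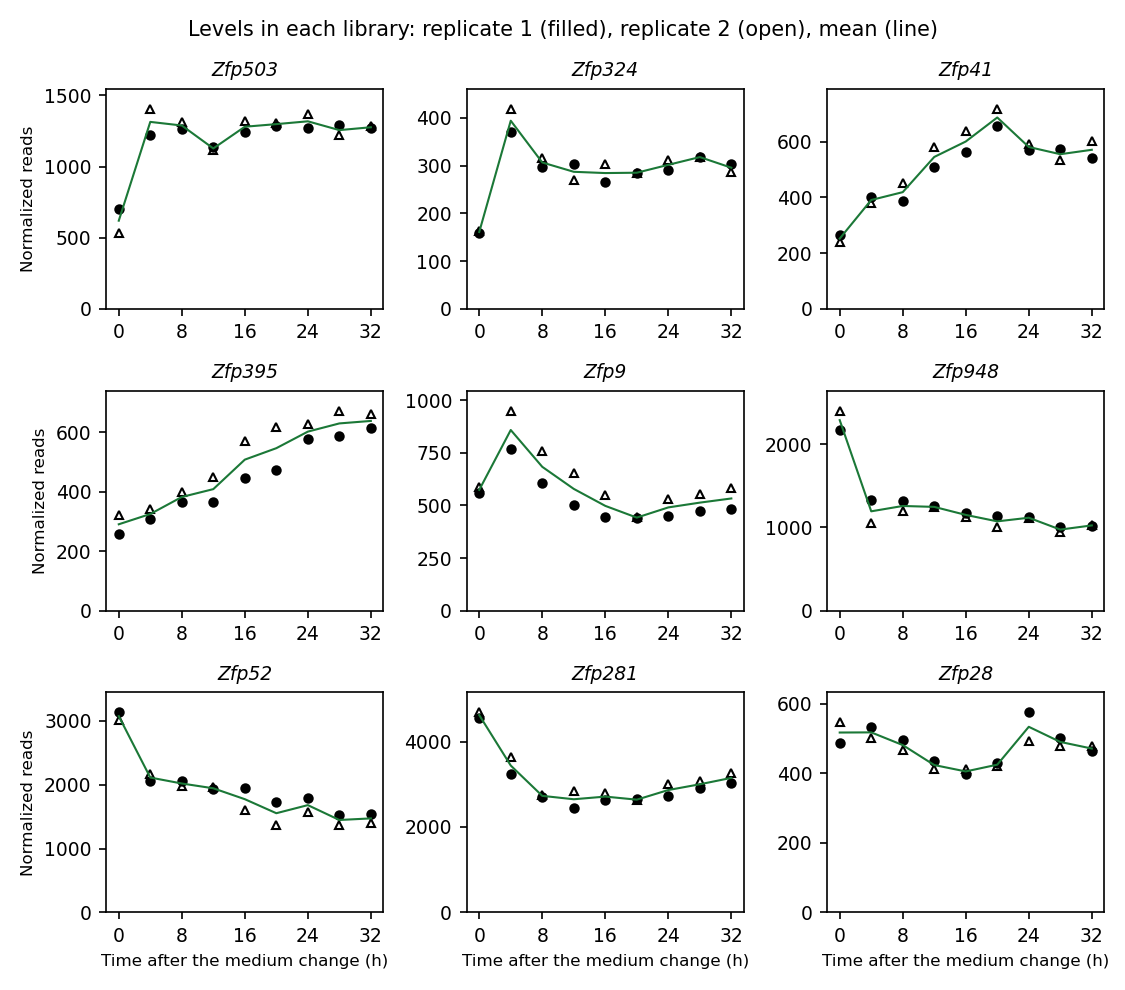
Levels of 9 members (y axes, normalized reads, each from 0) against the time after the medium change (x axes, h), with replicate 1 as filled circles, replicate 2 as open triangles and the mean of the pair as a line. Zfp503, Zfp324 and Zfp948 had moved by 4 h, Zfp41 and Zfp395 climbed over many hours, Zfp9 was highest at 4 h, and Zfp28 was lowest at 16 h.

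Among 62 pairs of neighbouring members, both rose at 4 h in 7 pairs and both fell in 1 pair, Zfp52 and Zfp948. Of single members 24.1% rose and 4.0% fell, and of KRAB members 31.2% rose and 2.4% fell. Pairs can share a member, as those with Zfp940 do, and whether neighbours changed together more often than other members was not tested. Named after their values were seen, the pairs that rose were Zfp110 and Zfp128, Zfp167 and Zfp445, Zfp248 and Zfp9, Zfp324 and Zfp446, Zfp420 and Zfp940, Zfp563 and Zfp763, and Zfp790 and Zfp940. In 1 pair the calls were opposite (Zfp707 higher, Zfp623 lower), in 23 pairs a single member passed and in 30 neither did. KRAB members next to another member (70) had 23 higher and 2 lower, with a median log2 change of 0.23, and the other 55 had 16 higher and 1 lower, with a median of 0.17.

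KRAB members were also counted by the share of 50-base words found in other transcripts, a split made after the fits were seen. In the 85 with under 5% of shared 50-base words, 28 were higher and 3 lower (median log2 change 0.21), and in the 40 with more, 11 were higher and 0 lower (median 0.21). Members whose exons overlap no other gene (170) had 45 higher and 7 lower. Of 16 SCAN members 8 were higher and 0 lower, against 11.0% and 10.5% of all tested genes. Leaving out 0 h replicate 2 brought the higher count to 2, and leaving out replicate 1 or replicate 2 of 4 h brought it to 3 or 5. The low KRAB genes moved at least as much as the high ones. With a mean under 300 normalized reads 17 of 53 were higher and 1 lower (median 0.31). With a mean of at least 300, 22 of 72 were higher and 2 lower (median 0.17). All genes with a mean from 100 to under 300 had a median of 0.03, and those with at least 300 a median of -0.009.

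**Figure D4:**
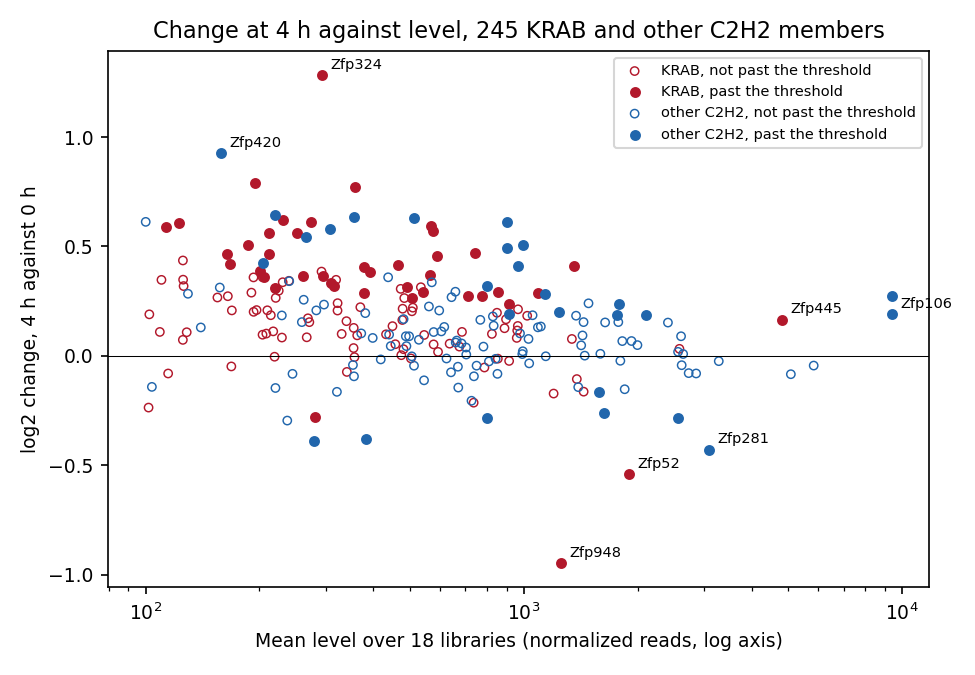
Log2 change at 4 h against 0 h (y axis) against the mean level over 18 libraries (x axis, normalized reads, log scale) for 245 KRAB (red) and other C2H2 (blue) members, with filled points past the adjusted p threshold. Most red points lie above 0 over the whole range of levels, and the far falls are those of Zfp948, Zfp52 and Zfp281.

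At 12 h and 32 h, compared with the same 0 h libraries, the members again had more rises than falls. At 12 h 77 members were higher (30.4%, against 18.1% of all tested genes and 20.1% of those with a mean of at least 100) and 27 lower (10.7%, against 18.2% and 20.2%). At 32 h 80 were higher (31.6%, against 20.5% and 21.9%) and 25 lower (9.9%, against 20.4% and 22.6%). KRAB members made up 52 of the risers at 12 h and 46 at 32 h, and other C2H2 members 24 and 31. The fallers at 32 h were 12 KRAB and 13 other C2H2 members, or 24 other C2H2 members with the replicate block, by which 40 members in all were lower, against 27.1% of all tested genes. At 12 h 46 members were higher without 0 h replicate 2 (18.2%, against 12.1% of all tested genes) and 48 without 12 h replicate 2 (19.0%, against 13.5%). The members lower at 12 h were 17 and 15 with replicate 1 or replicate 2 of 0 h left out, and 13 with 12 h replicate 2 left out. Rescaling the libraries to the same total gave 140 higher and 8 lower at 12 h and 161 and 10 at 32 h, and moved the median of all tested genes by 0.18 and 0.21 on the log2 scale. These are 55.3% and 63.6% higher, against 38.5% and 44.9% of all tested genes. With quantile normalization 66 members were higher and 21 lower at 12 h (26.1% higher, against 21.6%), and 67 and 26 at 32 h (26.5%, against 24%).

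The median of the KRAB members was above that of 0 h by a similar amount at all later times. From 4 h to 32 h, every 4 h, it was 0.21, 0.24, 0.22, 0.24, 0.18, 0.18, 0.23 and 0.21 on the log2 scale, and every value shares the 0 h libraries. The other C2H2 members were highest at 4 h (0.085) and stood between 0.022 and 0.057 afterwards, and the median of all tested genes was between -0.004 and 0.013. In replicate 1 alone the KRAB median ran from 0.13 (24 h) to 0.23 (16 h), and in replicate 2 alone from 0.19 (20 h) to 0.30 (8 h). At 32 h the KRAB median was 0.42 with equal totals and 0.11 with quantile normalization, and that of other C2H2 members 0.26 and 0.065.

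**Figure D5:**
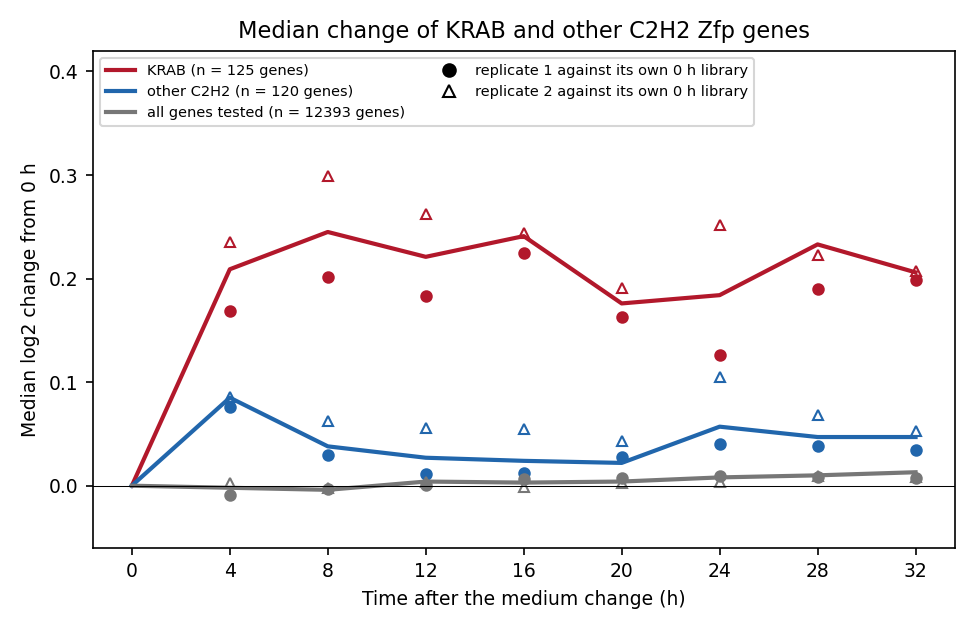
Median log2 change from 0 h (y axis) against time (x axis, h) for 125 KRAB members, 120 other C2H2 members and all 12393 genes tested, with the fit over both replicates as lines and each replicate against its own 0 h library as circles (replicate 1) and triangles (replicate 2). The KRAB medians lie between 0.13 and 0.30 in both replicates, above 0 under the deposited scaling and under equal totals or quantile normalization at 32 h.

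The summed level of the KRAB members was highest at 4 h and 8 h. In units of 1000 normalized reads it was 63.8 and 61.9 at 0 h, 68.4 and 67.6 at 4 h, 68.2 and 66.9 at 8 h, 64.2 and 60.9 at 20 h and 64.2 and 63.4 at 32 h. Against its own 0 h library, replicate 1 was lower at 24 h (62.6) and 28 h (63.6) and replicate 2 at 20 h, and both were higher at the other times. At 32 h 95 of 125 KRAB genes (76.0%) were above 0 h, against 51.3% of all tested genes. The KRAB members that fell by 32 h all had a mean of at least 300: those with a mean of at least 300 had 21 higher and 12 lower, and those under 300 had 25 higher and 0 lower. In share, these are 29.2% higher and 16.7% lower with a mean of at least 300, and 47.2% and 0.0% under 300. Over all genes with a mean of at least 300, 1868 of 9020 were higher (20.7%) and 2201 lower (24.4%). Over all genes with a mean from 100 to under 300, 408 of 1390 were higher (29.4%) and 156 lower (11.2%). Falls were thus more common at the higher levels over all genes too. The summed level of the other C2H2 members was 141 and 140 at 0 h in the same units, 146 and 147 at 4 h and 140 and 139 at 32 h.

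Several members climbed over many hours. Zfp41, which has 4 fingers and no KRAB match, was at 266 and 239 at 0 h, 400.2 and 381 at 4 h, 386 and 452 at 8 h, 508 and 582 at 12 h, 563 and 637 at 16 h, 656 and 717 at 20 h, 571 and 591 at 24 h, 575 and 534 at 28 h and 539.7 and 602 at 32 h. It was highest at 20 h and never returned to the range of 0 h: 2.15-fold at 12 h (log2 1.11 ± 0.105, adjusted p = 2.51e-06) and 2.26-fold at 32 h (log2 1.18 ± 0.105, adjusted p = 9.96e-07). Zfp395, known as a DNA-binding protein at the huntingtin gene promoter, was at 259 and 321 at 0 h, 307 and 342 at 4 h, 364 and 400.0 at 8 h, 366 and 450.4 at 12 h, 446 and 569 at 16 h, 474 and 618 at 20 h, 576 and 627 at 24 h, 587 and 672 at 28 h and 614 and 661 at 32 h. It rose nearly step by step, to 2.20-fold at 32 h (log2 1.14 ± 0.154, adjusted p = 4.62e-05), and replicate 2 was above replicate 1 at each time. Its call at 12 h (1.41-fold, adjusted p = 0.0228) was lost without some libraries (adjusted p = 0.177 on leaving out 0 h replicate 1 and 0.176 on leaving out 12 h replicate 2).

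Several KRAB genes were also higher at 12 h or 32 h. Zfp759 went from 65.0 and 90.6 at 0 h to 145 and 177 at 32 h (2.07-fold, log2 1.05 ± 0.188, adjusted p = 0.000475). Zfp248 went from 175 and 147 to 236 and 238 at 4 h and 301 and 295 at 32 h (1.85-fold, log2 0.89 ± 0.105, adjusted p = 1.36e-05). In both genes the libraries of 32 h lay above those of 0 h without overlap. Zfp808 was 1.94-fold higher at 12 h (183 and 177 against 326 and 378, log2 0.96 ± 0.131, adjusted p = 7.05e-05), though 43.1% of its 50-base words also occur in Zfp934 and its value is uncertain. Zfp775, which has no KRAB match and the lowest mean of the members, was 1.83-fold higher at 12 h (75.9 and 49.4 against 107 and 119.9, adjusted p = 0.0065), a call lost with adjusted p = 0.0966 on leaving out 0 h replicate 2, and shares 12.9% of its words with Gm38804.

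The late falls were those of Zfp948 and Zfp52 given above and of a further group. Zfp651 was at 3775 and 3725 at 0 h, 3511 and 3581 at 4 h, 2630.2 and 2646 at 12 h and 2489 and 2429 at 32 h (1.52-fold lower at 32 h, log2 -0.61 ± 0.0705, adjusted p = 1.17e-05). Zfp715, a KRAB gene, was at 1873 and 1794 at 0 h, 1685 and 1721 at 4 h, 1433 and 1365 at 12 h and 1265 and 1232 at 32 h (1.47-fold lower, log2 -0.55 ± 0.0782, adjusted p = 6.71e-05). Neither had passed at 4 h. Zfp697 fell to 325 and 285 at 32 h (1.79-fold lower, log2 -0.84 ± 0.125, adjusted p = 0.000107). At 12 h the KRAB gene Zfp949 was 1.61-fold lower (974 and 1072 against 643 and 628, log2 -0.68 ± 0.0892, adjusted p = 4.6e-05). In the same contrast Zfp623 was 1.52-fold lower (1062 and 1146 against 727 and 724, log2 -0.60 ± 0.079, adjusted p = 4.71e-05).

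The comparison of 28 h with 4 h sets the same hour of a 24 h cycle side by side, a day apart, and uses no library of 0 h. Fewer members passed, in share, than genes overall: 25 were higher (9.9%, against 20.6% of all tested genes and 22.3% of those with a mean of at least 100) and 37 lower (14.6%, against 20.7% and 22.7%), a balance that turned to 87 higher and 15 lower (34.4% higher, against 40.8% of all tested genes) when the libraries were rescaled to the same total. The KRAB median was -0.027 on the log2 scale and that of other C2H2 members 0.003, where all tested genes had 0.009. The count of higher members was 7 without 28 h replicate 2 (2.8%, against 13% of all tested genes). It was 14 if 4 h replicate 1 or 28 h replicate 1 was left out. The count of lower members was 20 without 28 h replicate 2 and 28 or more without any other single library.

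A group of genes peaked at 4 h and had come down a day later. Zfp9, a KRAB gene, was at 559.9 and 588 at 0 h, 766 and 949.9 at 4 h, 608 and 759 at 8 h, 503 and 654 at 12 h, 444 and 551 at 16 h, 438 and 446 at 20 h, 448 and 533 at 24 h, 472 and 555 at 28 h and 483 and 582 at 32 h. It was 1.67-fold lower at 28 h than at 4 h (log2 -0.74 ± 0.161, adjusted p = 0.00221), and its rise from 0 h to 4 h (1.49-fold, adjusted p = 0.0222) was lost without some libraries (adjusted p = 0.0783 on leaving out 0 h replicate 1, 0.0926 on leaving out 0 h replicate 2 and 0.151 on leaving out 4 h replicate 2). Zfp238 (Zbtb18), a repressor needed in the developing cortex, was at 853 and 792 at 0 h, 1321 and 1198 at 4 h, 1087 and 1015 at 8 h and 816 and 753 at 28 h. It rose 1.53-fold to 4 h (log2 0.61 ± 0.119, adjusted p = 0.00262) and stood 1.60-fold lower by 28 h than at 4 h (log2 -0.68 ± 0.119, adjusted p = 0.000412). Zfp420 was 1.52-fold lower at 28 h than at 4 h (adjusted p = 0.0103, lost with adjusted p = 0.0597 on leaving out 4 h replicate 1 and 0.075 on leaving out 28 h replicate 2).

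Against 4 h the climbers of 28 h were Zfp395 (1.93-fold, log2 0.95 ± 0.154, adjusted p = 0.000227), Zfp219 (1.55-fold, log2 0.64 ± 0.108, adjusted p = 0.000338) and Zfp365 (1.47-fold, log2 0.55 ± 0.109, adjusted p = 0.0011). Zfp365 encodes a centrosomal protein and was at 956 and 1204 at 0 h, 959 and 1077 at 4 h, 1492 and 1459 at 20 h and 1507 and 1474 at 28 h. Zfp219 was at 332 and 297 at 0 h, 340.1 and 283 at 4 h and 512 and 455 at 28 h, with exons overlapped by Tmem253 and Arhgef40 on the opposite strand. In both genes the libraries of 28 h lay above those of 4 h without overlap. Zfp759 (1.47-fold, adjusted p = 0.0279) and Zfp688 (1.46-fold, adjusted p = 0.0132) passed as well. Zfp759 lost its call with adjusted p from 0.0782 to 0.0981 on leaving out a library (1 or 2) made at 4 h or 28 h, each alone. Zfp688 lost its call with adjusted p = 0.116 on leaving out 4 h replicate 2 and 0.0724 on leaving out 28 h replicate 2.

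Over the 9 times together the F test passed in 105 members (41.5%, against 52.0% of all tested genes and 57.0% of those with a mean of at least 100), 55 of them KRAB and 46 other C2H2. A straight drift with time, fitted beside a 24 h cycle, was upward in 69 members (27.3%, against 28.2% of all tested genes and 29.7% of those with a mean of at least 100). It was downward in 48 (19.0%, against 27.3% and 29.3%). The upward share was thus no higher than over all tested genes, and the downward share was lower. Quantile normalization (53 and 54) did not keep the balance of 69 and 48. With equal totals the counts were 153 and 19 (50.7% and 14.0% of all tested genes), and with quantile normalization 30.7% and 24.1% of all tested genes drifted upward and downward. The steepest upward drifts were 0.92 ± 0.082 log2 per 24 h for Zfp395, 0.75 ± 0.112 for Zfp41, 0.60 ± 0.106 for Zfp759 and 0.52 ± 0.068 for Zfp219. The steepest downward drifts were -0.67 ± 0.087 for Zfp52, -0.58 ± 0.122 for Zfp948, -0.54 ± 0.080 for Zfp57 and -0.49 ± 0.078 for Zfp697. Without the libraries of 0 h and 4 h the balance turned, with 25 members upward and 33 downward (18.1% and 17.9% of all tested genes), and the drift of Zfp759 did not pass (adjusted p = 0.108).

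A 24 h rhythm passed in 1 member, the KRAB gene Zfp28 (against 0.371% of all tested genes and 0.384% of those with a mean of at least 100), and 35 members (13.8%) had an unadjusted p under 0.05, against 2107 tested genes (17.0%). Zfp28 was at 489 and 546 at 0 h, 534 and 502 at 4 h, 495 and 468 at 8 h, 434 and 413 at 12 h, 398 and 413 at 16 h, 429 and 421 at 20 h, 575 and 493 at 24 h, 503 and 478 at 28 h and 465 and 477 at 32 h. Its fitted cycle had a peak-to-trough fold of 1.30 and a peak at 2.88 h (limma, adjusted p = 0.0371), with the lowest library at 16 h and the highest at 24 h. The call was lost (adjusted p from 0.0501 to 0.148) on leaving out a library (1 or 2) made at 4 h, 8 h, 12 h, 16 h or 20 h, or replicate 1 of 0 h or 32 h, or replicate 2 of 24 h, each alone. Of the words of its transcript 16.4% also occur in Gm3203. The next smallest p were those of Zfp771 (1.32-fold, adjusted p = 0.0729), Zfp580 (1.44-fold, 0.0756), Zfp703 (1.27-fold, 0.126) and Zfp367 (1.31-fold, 0.137), which did not pass. With a straight term in time fitted beside the cycle 21 members passed, among them Zfp28, Zfp771, Zfp580, Zfp703 and Zfp367, against 17.0% of all tested genes and 19.2% of those with a mean of at least 100. With DESeq2 on the recovered reads 10 passed, against 4.30% and 4.84%. Of the 21, the largest cycles were those of Zfp808 (1.48-fold, peak at 13.2 h), Zfp41 (1.47-fold, 15.7 h), Zfp9 (1.44-fold, 6.66 h) and Zfp580 (1.44-fold, 23.2 h). The peaks of these genes lay at different hours. Many of the 21, Zfp9 among them, peaked between 2.66 h (Zfp703) and 8.33 h (Zfp658).

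Members that regulate transcription through known sites went both ways. Of 13 tested, 3 rose and 3 fell at 4 h and 2 rose and 1 fell at 32 h (3 and 2, and 6 and 1, with equal totals). Over all tested genes 11.0% rose and 10.5% fell at 4 h, and 20.5% and 20.4% at 32 h. Besides Zfp503 and Zfp238, Zfp161 (Zbtb14) rose: it was at 564 and 582 at 0 h, 699 and 731 at 4 h, 762 and 930.1 at 12 h and 842 and 814 at 32 h. The rise was 1.47-fold at 12 h (log2 0.56 ± 0.1, adjusted p = 0.000643) and 1.45-fold at 32 h (log2 0.53 ± 0.1, adjusted p = 0.000716). Its call at 4 h (1.25-fold, adjusted p = 0.0358) was lost without each library of that contrast (adjusted p from 0.09 to 0.136 on leaving out a library (1 or 2) made at 0 h or 4 h, each alone). Beside Zfp281 and Zfp516 the third to fall at 4 h was Zfp335, a partner of histone methyltransferase complexes (1.20-fold lower, adjusted p = 0.0318), of whose words 20.2% occur in Pcif1. It was lost with adjusted p = 0.105 on leaving out 0 h replicate 1, 0.116 on leaving out 0 h replicate 2 and 0.222 on leaving out 4 h replicate 2. Zfp148, which binds GC-rich promoters, was at 2509.8 and 2486 at 0 h, 2562 and 2757 at 4 h and 2594 and 2756 at 32 h and did not pass in any of the 4 contrasts.

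Of 9 partners of chromatin complexes 1 fell and 0 rose at 4 h, and 2 rose and 2 fell at 32 h, where equal totals gave 0 fallers and 1 riser at 4 h and 5 risers at 32 h. The shares of all tested genes were 11.0% and 10.5% at 4 h and 20.5% and 20.4% at 32 h. Zfp217, a corepressor known from breast cancer, was at 711 and 718 at 0 h, 737 and 734 at 4 h, 899 and 825 at 28 h and 846 and 801 at 32 h. It was 1.17-fold higher at 28 h than at 4 h (log2 0.23 ± 0.0632, adjusted p = 0.0103). Zfp652 was at 508 and 571 at 0 h, 503 and 568 at 4 h, 709 and 646 at 28 h and 702 and 743 at 32 h. It was 1.34-fold higher at 32 h than at 0 h (log2 0.42 ± 0.0954, adjusted p = 0.00272). Zfp462, which works with heterochromatin proteins and has 34 fingers, was at 2447 and 2473 at 0 h, 2893 and 2582 at 4 h, 2993 and 2615 at 12 h and 2115 and 1812 at 28 h. It was 1.40-fold lower at 28 h than at 4 h (log2 -0.48 ± 0.108, adjusted p = 0.00265). Zfp827, which recruits the NuRD complex to telomeres, was 1.42-fold lower in the same contrast (log2 -0.50 ± 0.0909, adjusted p = 0.000531). The call of Zfp217 was lost with adjusted p = 0.114 on leaving out 28 h replicate 1. Zfp592, the faller of 4 h, was 1.12-fold lower (adjusted p = 0.0474), which was lost with adjusted p from 0.0523 to 0.181 on leaving out a library (1 or 2) made at 0 h, 4 h, 8 h, 12 h, 16 h, 28 h or 32 h, each alone, and its direction at 12 h and 32 h turned with equal totals.

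Among 9 members that act on RNA, ribosomes, the spliceosome or the spindle, 2 rose and 0 fell at 4 h, and 6 drifted downward and 0 upward over the course, a balance that turned to 2 upward and 1 downward with equal totals. Of all tested genes 11.0% rose at 4 h, and 27.3% drifted downward and 28.2% upward. Zfp207 was at 9078 and 8488 at 0 h, 10883 and 10317 at 4 h, 10726 and 10631 at 8 h, 9878 and 9079 at 12 h and 8771 and 8468 at 32 h. It was 1.21-fold higher at 4 h (log2 0.27 ± 0.077, adjusted p = 0.0227), a call lost with adjusted p = 0.135 on leaving out 4 h replicate 1 and 0.188 on leaving out 0 h replicate 2. Zfp106 was 1.14-fold higher at 4 h (log2 0.19 ± 0.0553, adjusted p = 0.0259), a call lost with adjusted p = 0.201 on leaving out 0 h replicate 2 and 0.133 on leaving out 4 h replicate 2. Zfp593, which acts in the assembly of the large ribosomal subunit, fell from 905 and 811 at 0 h to 648 and 634 at 12 h and 601 and 598 at 32 h (1.43-fold lower, log2 -0.52 ± 0.0876, adjusted p = 0.000315). Its value is uncertain, since 64.5% of its words occur in E130218I03Rik on the opposite strand. Zfp346, which binds double-stranded RNA, was 1.23-fold higher at 12 h (681 and 644 against 835 and 797, log2 0.30 ± 0.0748, adjusted p = 0.00616), a call lost with adjusted p = 0.0558 on leaving out 0 h replicate 2. Zfp598, a ubiquitin ligase at collided ribosomes, was at 2818 and 2481 at 0 h, 2949.7 and 2430.1 at 4 h and 2489 and 2291 at 32 h, and Zfp91, another ligase, at 3248 and 3524 at 0 h, 3127 and 3538 at 4 h and 2953 and 3212 at 32 h. Neither passed in any of the 4 contrasts, though Zfp598 passed at 32 h with the replicate block (adjusted p = 0.0417).

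The KRAB proteins with known targets did not share a course. Of 5 tested, 2 rose at 4 h and 2 fell at 32 h, where 3 rose and 0 fell with equal totals, against 11.0% of all tested genes that rose at 4 h and 20.4% that fell at 32 h. Zfp57, which holds methylation at imprinted regions, was at 1664 and 1330.4 at 0 h, 2208 and 1769.8 at 4 h, 1792 and 1554 at 8 h, 1415 and 1171 at 12 h, 1249.8 and 1088 at 16 h, 1200.4 and 1128 at 20 h, 1109 and 1103 at 24 h, 1158 and 1142 at 28 h and 1191 and 1106 at 32 h. It was 1.72-fold lower at 28 h than at 4 h (log2 -0.78 ± 0.126, adjusted p = 0.00022), with no overlap of the libraries. Its rise at 4 h (1.33-fold, adjusted p = 0.033) was lost with adjusted p = 0.284 on leaving out 4 h replicate 1 and 0.336 on leaving out 0 h replicate 2. Its fall at 32 h (1.30-fold, adjusted p = 0.0284) was lost with adjusted p = 0.277 on leaving out 0 h replicate 1, 0.0575 on leaving out 32 h replicate 1 and 0.149 on leaving out 32 h replicate 2. Zfp445, which acts at the same regions, was 1.12-fold higher at 4 h (4622 and 4388 against 5101 and 5003, adjusted p = 0.0402), a call lost with adjusted p from 0.0501 to 0.279 on leaving out a library (1 or 2) made at 4 h, 16 h, 28 h or 32 h, or replicate 2 of 0 h, each alone.

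Zfp568, which represses a placental transcript of Igf2, was at 1144 and 1096 at 0 h, 1217 and 1245 at 4 h, 1016 and 929.9 at 8 h, 968 and 930.1 at 12 h, 874 and 877 at 16 h, 856 and 816 at 20 h, 882 and 891 at 24 h, 898 and 861 at 28 h and 945 and 901 at 32 h. It was highest at 4 h and lowest at 20 h. It was 1.40-fold lower at 28 h than at 4 h (log2 -0.48 ± 0.0633, adjusted p = 3.59e-05) and 1.21-fold lower at 32 h than at 0 h (log2 -0.28 ± 0.0633, adjusted p = 0.00281). Zfp809, which silences murine leukemia viruses, was at 629 and 559 at 0 h, 593 and 639.7 at 4 h, 664 and 698 at 12 h and 617 and 637 at 32 h and did not pass in any of the 4 contrasts. Zfp932, which acts on endogenous retroviruses, was 1.15-fold higher at 12 h (adjusted p = 0.0299), a call lost with adjusted p = 0.144 on leaving out 0 h replicate 1, 0.173 on leaving out 12 h replicate 1 and 0.0545 on leaving out 0 h replicate 2, and 45.2% of its words occur in Gm15446. The neurotrophin receptor interacting factors Zfp110 and Zfp369, both with KRAB and SCAN domains, rose at 4 h (1.22-fold, adjusted p = 0.0248, and 1.22-fold, adjusted p = 0.0333). These calls were lost with adjusted p = 0.199 on leaving out 4 h replicate 1 and 0.226 on leaving out 0 h replicate 2 for Zfp110 and adjusted p = 0.135 on leaving out 4 h replicate 1, 0.306 on leaving out 0 h replicate 2 and 0.0831 on leaving out 4 h replicate 2 for Zfp369. Zfp369 rose on, from 304 and 265 at 0 h to 470.1 and 444 at 32 h (1.61-fold, log2 0.68 ± 0.0892, adjusted p = 3.25e-05).

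The partners through which KRAB proteins repress were given by a list of 25 tested genes. At 4 h 4 of these rose and 3 fell, and at 12 h 11 rose and 2 fell. At 32 h 14 rose and 2 fell (20 and 0 with equal totals), and the F test passed in 17. Of all tested genes 11.0%, 18.1% and 20.5% rose and 10.5%, 18.2% and 20.4% fell at these times, and 52.0% passed the F test. The median log2 change of the list at these 3 times was 0.035, 0.17 and 0.19, beside -0.002, 0.004 and 0.013 over all tested genes. Trim28, the corepressor that binds KRAB, was at 11706 and 10906 at 0 h, 12353 and 11684 at 4 h, 13608 and 13478 at 12 h and 13479 and 13063 at 32 h, 1.20-fold higher at 12 h (log2 0.26 ± 0.0587, adjusted p = 0.00319). Setdb1, the histone H3 lysine 9 methyltransferase, was 1.30-fold higher at 12 h (log2 0.38 ± 0.0815, adjusted p = 0.00247). Atf7ip, the partner that stabilizes SETDB1, was at 1356 and 1354 at 0 h, 1788 and 1830.3 at 4 h, 1999 and 2026 at 8 h, 1922 and 2082 at 12 h, 2212 and 2184 at 16 h, 2153 and 2252 at 20 h, 2109.7 and 2222 at 24 h, 2244 and 2270.3 at 28 h and 2303 and 2332 at 32 h. It rose through the course, 1.33-fold at 4 h (log2 0.42 ± 0.0537, adjusted p = 0.000129) and 1.71-fold at 32 h (log2 0.77 ± 0.0537, adjusted p = 8.83e-08), with no library after 0 h in the range of 0 h. Chd3, a helicase of the NuRD complex, dipped from 5222 and 5271 at 0 h to 3680.4 and 3576 at 4 h (1.45-fold lower, log2 -0.53 ± 0.0492, adjusted p = 9.57e-06). It was at 5924 and 5728 at 32 h. Ehmt2, another lysine 9 methyltransferase, was 1.43-fold higher at 28 h than at 4 h (log2 0.51 ± 0.0598, adjusted p = 1.4e-05). Uhrf1, which guides DNA methylation, was 1.53-fold higher at 12 h (log2 0.62 ± 0.0666, adjusted p = 8.5e-06). Dnmt1 was 1.30-fold higher at 12 h (log2 0.38 ± 0.0672, adjusted p = 0.000531). It was 1.37-fold higher at 28 h than at 4 h (log2 0.45 ± 0.0672, adjusted p = 0.000106). Named after their values were seen, the 2 that fell at 32 h were Morc2a (1.23-fold lower) and Morc3 (1.24-fold lower). Neither passed as lower with equal totals.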

How the data were processed

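RNA from 18 libraries of NIH3T3 cells (9 times, 2 replicates) was measured by single-end RNA-seq. The deposited table gives a normalized read count per gene, handled here as a signal: reads divided by 1 size factor per library. TopHat, HTSeq, DESeq and the genome build mm9 are named, per the submitters' processing notes, without versions or roles, and strand use and handling of reads with several matches are not given in the sources used here. The smallest step of each column, taken as the worth of 1 read, turned 100% of values into whole reads within 0.02 (largest distance 0.00923), and library totals and edgeR and DESeq2 fits use these reads. Depth is given with the samples.

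Changes were tested with limma 3.58.1 (R 4.3.3) on log2(value + 1) with a variance trend, in 1 fit of all 18 libraries over the 12393 genes with a mean of at least 10. The contrasts were 4 h, 12 h and 32 h against 0 h and 28 h against 4 h, two-sided, beside an F test over the times, a 24 h cosine and sine, and a straight drift beside these. P-values were adjusted by Benjamini-Hochberg over all genes, with a threshold of 0.05. On simulated data for 4 h against 0 h (12393 genes), 28% of genes changed 1.25-fold, 72% of those changed 1.5-fold and 88% of those changed 2-fold were found. There were 18 calls among unchanged genes. Only 50 genes were changed at each fold, and the libraries were drawn with no shared replicate effect. In the data 1361 genes passed as higher and 1303 as lower at 4 h, so the simulated shares need not hold there. On the recovered reads edgeR 4.0.16 called 2503 genes at 4 h and DESeq2 1.42.0 called 2404. Replicate numbers paired the libraries: deviations from the time means correlated over 0.1 in 36 of 36 pairs of times (0.230 to 0.502).

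Members, lists and classes were chosen with earlier results of these data known. The motifs and the splits by shared words, level, neighbours and overlap were chosen after the fits had been seen. Genes were named by rule: for each contrast the 6 highest and 6 lowest changes among passing members whose libraries did not overlap, the 5 smallest rhythm p, the 4 steepest drifts each way, the 5 highest levels, the members next to the limit, the role lists, and the 5 pathway genes with the smallest F test p. Trim28, Setdb1 and Zfp940 were added for their role or place. Classes came from GENCODE M21 coding models (240 members matched by symbol and 13 by an older one), where RefSeq proteins had been planned. Fingers were read as C, 2 to 4 residues, C, 12 residues, H, 3 to 5 residues and H. Coordinates of promoter windows are those of GRCm38.p6 and not of mm9. Python 3.11.15 was used for the tables and plots.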

Additional observations from a re-analysis of the deposited data

How the results depend on the processing

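Alternatives were another pseudocount, filter, scaling, tool or member limit, the replicate block, and each library left out in turn. Of 164 calls of 79 named genes, 92 held in all alternatives run, 69 were lost without at least 1 library and 47 were lost or reversed under another alternative. In simulated data with 2 libraries a time, 28% of changes of 1.25-fold were found. Far fewer genes changed there than passed in the data, so that share need not hold for the data. The cause of the shifts below was not tested.

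Rescaling the libraries to the same total moved the median of all genes by up to 0.21 (log2) and gave 170 members in the F test, 153 drifting upward and 19 downward, 6 lower at 4 h, 140 higher and 8 lower at 12 h, 161 higher and 10 lower at 32 h, and 87 higher and 15 lower at 28 h against 4 h. By class it gave 88 KRAB members higher and 5 lower at 32 h (median 0.42), 4 other C2H2 members lower at 4 h (median 0.12), and 70 higher and 5 lower at 32 h (median 0.26). It also reversed Zfp148 (0.18) and Zfp932 (0.17) at 28 h against 4 h, Zfp828 (0.17) and Zfp592 (0.026) at 12 h, and Zfp191 (0.21), Zfp592 (0.027) and Zfp609 (0.20) at 32 h. The share of higher among called members went from 85.9% to 92.5% at 4 h, 74.0% to 94.6% at 12 h, 76.2% to 94.2% at 32 h and 40.3% to 85.3% at 28 h against 4 h.

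At 32 h the KRAB median was 0.11 with quantile normalization, 0.192 with a pseudocount of 10, 0.219 with edgeR and 0.16 for members with a mean of at least 200. The other C2H2 median was 0.076 (quantile) and 0.075 (mean of at least 200) at 4 h and 0.065 (quantile) at 32 h. DESeq2 gave 15 members higher at 28 h against 4 h. The rhythm passed in 0 members with no filter, equal totals or a period of 22 h, in 4 with 26 h, in 10 with DESeq2 and in 21 with a linear term. Without 0 h and 4 h 25 members drifted upward.

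With the replicate block, which follows the pairing, the moved counts were 40 members lower at 32 h, 6 KRAB members lower and 35 other C2H2 members higher at 4 h, and 24 other C2H2 members lower at 32 h. Other counts under the block were 157 in the F test, 91 higher and 15 lower at 4 h, and 34 higher and 52 lower at 28 h against 4 h. The block added 34 calls of named genes and ended none of those reported.

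Leaving out 1 library in turn gave 79 to 112 members in the F test, 0 to 1 for the rhythm, 53 to 71 drifting upward and 40 to 53 downward. At 4 h it gave 18 to 67 higher and 4 to 10 lower, at 12 h 46 to 80 and 13 to 28, at 32 h 57 to 82 and 17 to 27, and at 28 h against 4 h 7 to 25 and 20 to 38. KRAB members had 9 to 43 higher, 2 to 3 lower and a median of 0.181 to 0.238 at 4 h, and 32 to 47, 8 to 12 and 0.195 to 0.206 at 32 h. Other C2H2 members had 8 to 22, 2 to 7 and 0.069 to 0.097 at 4 h, and 22 to 33, 9 to 15 and 0.025 to 0.066 at 32 h.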

Other observations

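Related zinc finger families were counted in the same fit. Of 13 tested Zscan and Zkscan genes, whose products carry a SCAN domain, 5 were higher and 0 lower at 4 h than at 0 h (median log2 change 0.19), and 9 were higher and 0 lower at 32 h (median 0.32), with 7 to 11 higher and 0 lower under other scalings. These are 38.5% and 69.2% higher, beside 11.0% and 20.5% of all tested genes. Of 31 tested Zbtb genes, which pair fingers with a BTB domain, 3 were higher and 4 lower at 4 h (median 0.006), and 5 were higher and 5 lower at 32 h (13 and 3 with equal totals, 4 and 6 with quantile normalization), or 9.7% and 16.1% higher. Both times were set against the same 0 h libraries.

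Of the 78 Zfp symbols below a mean of 100, 46 were tested. Their median level was 45.0, against 912.5 for all tested genes, so the shares that follow are not from genes of like level. At 4 h 4 of these (8.7%, against 11.0% of all tested genes) were higher and 0 lower (median log2 change 0.26), and at 32 h 15 (32.6%, against 20.5%) were higher and 0 lower (median 0.41). With quantile normalization 3 were higher and 1 lower at 4 h, and 14 and 0 at 32 h.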
